A study of Caenorhabditis elegans with 2 samples.

Results

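The genes followed here bring sterols to, or turn them into, the dafachronic acids of *C. elegans*, or act with the receptor of these hormones. They are 8 of the 46904 genes in the deposited table and were chosen by name: *daf-36*, *dhs-16*, *hsd-1* and *daf-9* for synthesis, *strm-1* for diversion of sterols, *ncr-1* and *ncr-2* for sterol transport, and *din-1* for the corepressor. RNA was measured in whole N2 worms, the wild-type laboratory strain, raised from synchronized L1 larvae on *L. plantarum* with a trace (0.2 µl) of *E. coli*, either the *pdxH* mutant or the BW25113 wild type. The *pdxH* mutant is a single-gene deletion strain of the BW25113 background that lacks the oxidase making pyridoxal phosphate, the active form of vitamin B6, and it was grown with kanamycin. All worms therefore shared the *L. plantarum* diet. The study's methods give the same stage for the worms of both diets, while the age at collection is not given in the sources used here. In its growth assays, the study reported early arrest on *L. plantarum* with a trace of the *pdxH* mutant, while wild-type *E. coli* restored growth. On *L. plantarum* alone, the study placed the arrest at an early larval stage, and dauer larvae grew to adults on that food. Whether the sequenced worms differed in developmental progress was not tested. There was 1 library per diet, so no difference below has a replicate check, and no p-value is given for a difference between the diets. The diet, the kanamycin, the single culture and any difference in developmental progress cannot be told apart.

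*C. elegans* cannot make sterols and takes cholesterol from its food or medium. Dafachronic acids are steroid hormones made from it by an oxygenase, hydroxysteroid dehydrogenases and a cytochrome P450. They bind the nuclear receptor DAF-12, and this favours reproductive growth, whereas DAF-12 without ligand works with the corepressor DIN-1 and favours arrest as a dauer larva. The study sequenced these worms to look for host pathways that depend on *pdxH* in the bacteria, and for the 8 genes the question is whether their transcripts differed between the *pdxH* and the wild-type diet.

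The 2 libraries held 46372171 reads with the *pdxH* mutant and 40707752 with wild-type *E. coli*. Each change is given as a log2 ratio with the *pdxH* library on top, after 1 was added to both deposited values. The 95% interval beside it covers counting error only. Genes with fewer than 50 reads in both libraries together were left out of counts, which kept 14279 genes, whose median log2 ratio was 0.01. A gene is called higher or lower when its log2 ratio is over 0.5 or under -0.5. Levels of different genes are compared only as reads per kilobase of exon scaled to library size (RPKM, computed here with exon lengths). Markers of intestine, hypodermis, body wall muscle, neurons, pharynx and germline were present in both libraries, none at 0.

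Of the 8 genes, 7 had at least 50 reads. *ncr-2* was higher past the threshold, *daf-9* and *dhs-16* were lower past it, and *daf-36*, *strm-1*, *ncr-1* and *din-1* lay between. Over all genes with at least 50 reads, the shares past this threshold were 5.93% higher and 9.46% lower. Among genes with at least 200 and under 2000 reads, the range that holds *daf-36*, *dhs-16*, *daf-9*, *strm-1* and *ncr-2*, these shares were 5.54% and 10.7%. The log2 ratios of the 7 genes ran from -0.81 to 0.76 around a median of 0.03, so the group as a whole did not move in 1 direction. The counting interval lay above 0 for 3 of them and below 0 for 3, against 27.4% and 25.8% of all genes tested. These shares are not matched for reads, and more reads give narrower intervals. *ncr-1* and *din-1*, with 13930 and 22969 reads in both libraries together, were counted here at ratios of 0.14 and -0.14.

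**Figure D1:**
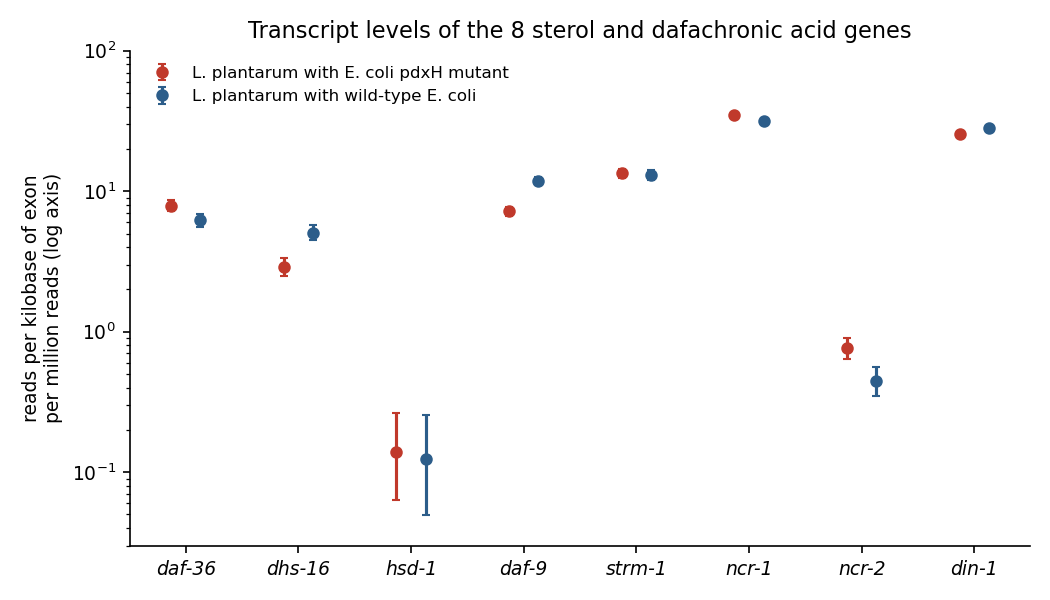
RPKM computed with exon lengths (log axis) for the 8 genes, with the *E. coli pdxH* mutant on the left of each pair and wild-type *E. coli* on the right; points are single libraries and bars are exact 95% Poisson intervals of counting error. *daf-9* was at 7.20 with the *pdxH* mutant and 11.9 with wild type, while the bars of *strm-1* and *hsd-1* overlap.

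The genes of the last and the first enzyme of the route had log2 ratios of opposite sign. *daf-9* (WBGene00000905) encodes the cytochrome P450 that oxidizes the sterol side chain in the closing step of dafachronic acid synthesis. In the WBcel235 genome it spans 6196927 to 6200823 of chromosome X, plus strand, and its 3 annotated transcripts cover 2062 exon bases. It had 688 reads with the *pdxH* mutant and 997 with wild-type *E. coli*, a log2 ratio of -0.72 (95% interval -0.87 to -0.58), or 1.65-fold lower. Of all genes tested, 6.21% had a lower ratio. In a bulk library, fewer cells that express a gene and less RNA per cell cannot be told apart.

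*daf-36* (WBGene00007536) encodes the Rieske-type oxygenase that acts first on cholesterol, and it is known to be expressed in the intestine. It spans 10223513 to 10225710 of chromosome V, minus strand, with 1381 exon bases. It had 505 reads with the *pdxH* mutant and 351 with wild-type *E. coli*, a log2 ratio of 0.34 (95% interval 0.14 to 0.54). This was above 86.7% of all genes tested but short of the threshold, and its interval reached past it.

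*dhs-16* (WBGene00000979) encodes a hydroxysteroid dehydrogenase that acts between *daf-36* and *daf-9*. It spans 5983745 to 5985509 of chromosome V, plus strand, with 1341 exon bases. It had 180 reads with the *pdxH* mutant and 277 with wild-type *E. coli*, a log2 ratio of -0.81 (95% interval -1.09 to -0.53), or 1.75-fold lower. This was the lowest ratio of the 8 genes, and 5.34% of all genes tested were lower still. Its exons share 74 bases with those of C10F3.7 on the other strand, for which only 7 reads with the *pdxH* mutant and 11 with wild type were counted.

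*hsd-1* (WBGene00012394) encodes a hydroxysteroid dehydrogenase known from the XXX cells, a pair of neuroendocrine cells in the head that also express *daf-9*. It spans 13720125 to 13724453 of chromosome I. It had 9 reads with the *pdxH* mutant and 7 with wild-type *E. coli*, and the interval of its log2 ratio ran from -1.42 to 1.83. This interval holds 0 and reaches past the threshold on both sides, so the direction of *hsd-1* was not resolved at this depth.

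The ratio of 2 genes within a library does not depend on how the libraries are scaled. Here and below, read ratios are not corrected for exon length. They serve only to compare the diets and do not rank the 2 genes by level. There were 1.36 *daf-9* reads for each *daf-36* read with the *pdxH* mutant and 2.84 with wild-type *E. coli*, a log2 difference of -1.06 (95% interval -1.31 to -0.81). For *dhs-16* over *daf-36* the read ratio was 0.356 with the *pdxH* mutant and 0.789 with wild type, a log2 difference of -1.15 (95% interval -1.49 to -0.80). *daf-9* and *dhs-16* themselves kept a like proportion, with 3.82 *daf-9* reads per *dhs-16* read on the *pdxH* diet and 3.60 on the wild-type diet, and an interval of the log2 difference from -0.23 to 0.40. These 3 ratios share genes and are not independent of each other. They restate the log2 ratios above from the same reads and add no separate support.

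Corrected for exon length, the make-up of the 4 synthesis transcripts shifted accordingly. *daf-36* made up 43.5% of their summed reads per kilobase with the *pdxH* mutant and 26.8% with wild-type *E. coli*. Shares depend on all 4 genes, so lower *daf-9* and *dhs-16* also raise the share of *daf-36*. The level of *daf-36* itself was 1.26-fold higher, short of the threshold. *daf-9* made up 39.7% with the *pdxH* mutant and 50.9% with wild type. *dhs-16* made up 15.98% with the *pdxH* mutant and 21.8% with wild type, and *hsd-1* stayed under 1%, at 0.771% with the *pdxH* mutant and 0.531% with wild type. On the *pdxH* diet the levels of *daf-36* (7.89 RPKM) and *daf-9* (7.20 RPKM) had overlapping Poisson intervals. On the wild-type diet *daf-9* was ahead, at 11.9 RPKM against 6.24 for *daf-36*.

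**Figure D2:**
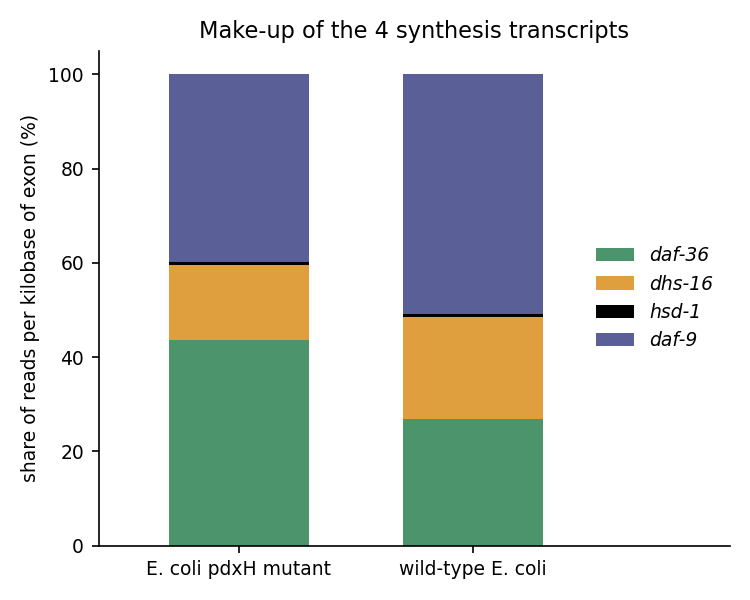
Share of each gene in the summed reads per kilobase of exon of the 4 synthesis genes (percent, from 0 to 100), with the *E. coli pdxH* mutant on the left and wild-type *E. coli* on the right, 1 library each. *daf-36* takes 43.5% of the *pdxH* bar and 26.8% of the wild-type bar, and *daf-9* takes 39.7% of the *pdxH* bar and 50.9% of the wild-type bar. Each share depends on the levels of all 4 genes.

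*strm-1* (WBGene00019198) encodes a methyltransferase that adds a methyl group to the sterol ring and so takes sterols away from dafachronic acid synthesis. It spans 2402070 to 2406335 of chromosome III, plus strand. It had 692 reads with the *pdxH* mutant and 595 with wild-type *E. coli*, a log2 ratio of 0.03 (95% interval -0.13 to 0.19). This was the smallest difference among the 7 genes. Its exons share 26 bases with *mrpl-30* on the other strand, whose log2 ratio was 0.01 (1054 reads with the *pdxH* mutant, 916 with wild type). Against *daf-36*, which works on the same sterol pool, *strm-1* gave 1.37 reads per *daf-36* read with the *pdxH* mutant and 1.70 with wild type, a log2 difference of -0.31 (95% interval -0.56 to -0.05).

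The transport genes differed more in level than in direction. *ncr-1* and *ncr-2* encode relatives of the human Niemann-Pick type C protein, which moves cholesterol out of lysosomes, and worms that lack both are known to form dauer larvae. *ncr-1* (WBGene00003561, chromosome X, 4472244 to 4488857) had 7763 reads with the *pdxH* mutant and 6167 with wild-type *E. coli*, a log2 ratio of 0.14 (95% interval 0.10 to 0.19). *ncr-2* (WBGene00003562, chromosome III, 8258345 to 8265805) had 140 reads with the *pdxH* mutant and 72 with wild-type *E. coli*, a log2 ratio of 0.76 (95% interval 0.35 to 1.20). Of all genes tested, 1.59% had a higher ratio, a share not matched for reads. *ncr-2* was 1.70-fold higher, and the lower end of its interval was under the threshold. Its share of the *ncr* transcripts per exon length remained small, at 2.14% with the *pdxH* mutant and 1.40% with wild type. Relative to *ncr-1* within the same library, *ncr-2* was higher by 0.63 on the log2 scale (95% interval 0.20 to 1.06).

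The collagen gene *col-91* lies within the span of *ncr-2* on the opposite strand. It shares 0 exon bases with *ncr-2* and had 950 reads with the *pdxH* mutant and 2389 with wild-type *E. coli*, a log2 ratio of -1.52. The 2 genes therefore went opposite ways, *ncr-2* higher and *col-91* lower.

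*din-1* (WBGene00008549) encodes a large nuclear corepressor, whose short form is known to act with DAF-12. It spans 11614770 to 11633609 of chromosome II, minus strand, and its 7 annotated transcripts cover 9785 exon bases. It had 11665 reads with the *pdxH* mutant and 11304 with wild-type *E. coli*, a log2 ratio of -0.14 (95% interval -0.18 to -0.11). The deposited values add up all forms of the gene, so the short form was not measured apart from the long ones. *daf-12*, the receptor gene, had 9321 reads with the *pdxH* mutant and 8011 with wild type, a log2 ratio of 0.03 (95% interval -0.01 to 0.07). There were 1.25 *din-1* reads per *daf-12* read on the *pdxH* diet and 1.41 on the wild-type diet, a log2 difference of -0.17 (95% interval -0.23 to -0.12). Per exon length, *din-1* was below *daf-12*, at 25.7 against 45.3 RPKM with the *pdxH* mutant and 28.4 against 44.3 with wild type.

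In both libraries the levels per exon length ran from *ncr-1* through *din-1* and *strm-1* down to *dhs-16*, *ncr-2* and *hsd-1*. *ncr-1* stood at 35.0 RPKM with the *pdxH* mutant and 31.7 with wild-type *E. coli*, and *din-1* stood at 25.7 with the *pdxH* mutant and 28.4 with wild type. *strm-1* followed at 13.4 with the *pdxH* mutant and 13.1 with wild type. *daf-36* and *daf-9* were next, in the order given above for each diet, with *daf-9* overlapping *strm-1* within counting error on the wild-type diet. The place of *dhs-16* was the same on both diets, at 2.89 with the *pdxH* mutant and 5.07 with wild type, although on the wild-type diet its interval overlapped that of *daf-36*. *ncr-2* was at 0.766 with the *pdxH* mutant and 0.449 with wild type. *hsd-1* was the lowest, at 0.140 with the *pdxH* mutant and 0.124 with wild type.

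**Figure D3:**
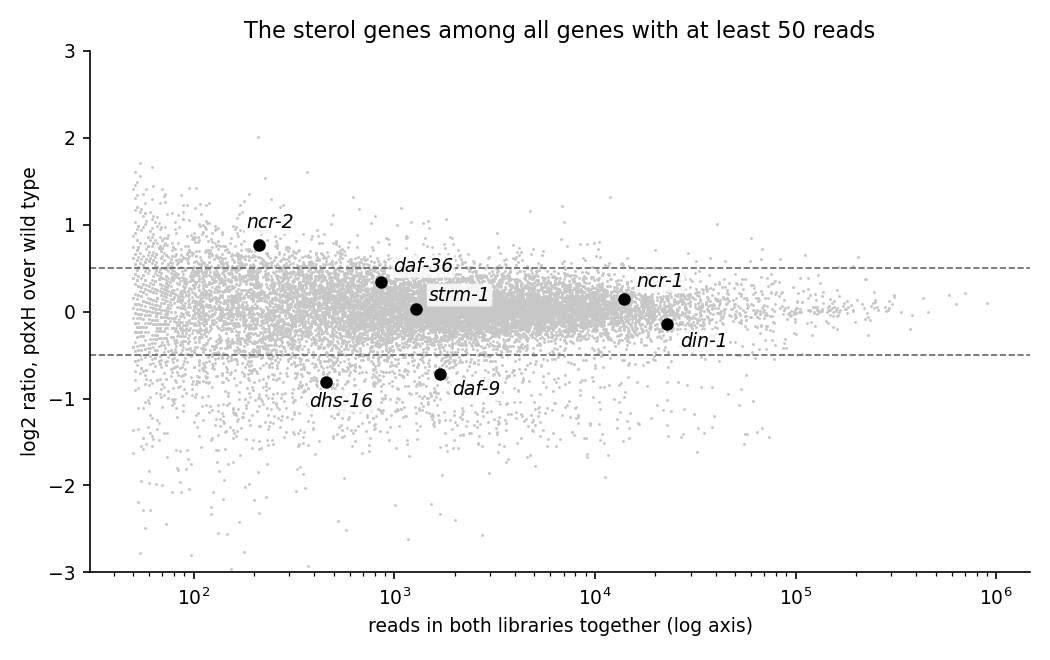
Log2 ratio of *pdxH* over wild type against the reads of both libraries together (log axis) for the 14279 genes with at least 50 reads (grey, 14 of them beyond the vertical axis) and for 7 of the 8 genes (black); dashed lines mark 0.5 and -0.5. *ncr-2* at 0.76 lies above the upper line, and *daf-9* at -0.72 and *dhs-16* at -0.81 lie below the lower one.

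A list of 26 other genes of sterol handling was compared in the same way, and 17 of them had at least 50 reads. None was higher past the threshold and 2 were lower, against 5.93% and 9.46% of all genes, and their median log2 ratio was 0.01. *mboa-1*, which encodes a membrane-bound acyltransferase related to mammalian sterol acyltransferases, had 592 reads with the *pdxH* mutant and 881 with wild-type *E. coli*, a log2 ratio of -0.76 (95% interval -0.91 to -0.61). *hsd-3*, a relative of *hsd-1*, had 97 reads with the *pdxH* mutant and 122 with wild type, a log2 ratio of -0.51 (95% interval -0.92 to -0.12), and was no longer past the threshold with a pseudocount of 5. Its neighbor *hsd-2* had 30 reads with the *pdxH* mutant and 16 with wild type, too few to be counted, with an interval from -0.20 to 1.69.

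The receptors, the electron supply of DAF-9 and the bulk carriers were close to even. *nhr-8*, a nuclear receptor gene known for cholesterol balance, had 2302 reads with the *pdxH* mutant and 1776 with wild type, a log2 ratio of 0.19 (95% interval 0.10 to 0.28). *emb-8*, which encodes the reductase that passes electrons to cytochrome P450 enzymes, had 27105 reads with the *pdxH* mutant and 23612 with wild type, at a log2 ratio of 0.01 (95% interval -0.01 to 0.04). *emb-8* was thus level in the pair of libraries in which *daf-9* differed by -0.72. *heh-1*, a relative of the soluble Niemann-Pick type C sterol carrier, had 6071 reads with the *pdxH* mutant and 4835 with wild type, at a log2 ratio of 0.14 (95% interval 0.09 to 0.20), close to the 0.14 of *ncr-1*. The 4 oxysterol-binding protein genes *obr-1* to *obr-4* ran from -0.06 to 0.24.

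The genes of lipoproteins and sterol sensing also stayed within the threshold where they could be counted. *lrp-1*, a hypodermal relative of the lipoprotein receptor megalin that is needed for moulting, had 33491 reads with the *pdxH* mutant and 27942 with wild-type *E. coli*, a log2 ratio of 0.07 (95% interval 0.05 to 0.10). *sbp-1*, the worm relative of the sterol regulatory element-binding proteins, had 3169 reads with the *pdxH* mutant and 2471 with wild type, at a log2 ratio of 0.17 (95% interval 0.09 to 0.25). *scp-1*, a relative of the protein that escorts them, had a log2 ratio of -0.28. The 6 vitellogenin genes, whose products carry sterols in yolk, had 39 reads in all with the *pdxH* mutant and 52 with wild type, and none reached 50 reads. *let-767*, *art-1*, *rme-2* and *dsc-4* had log2 ratios between -0.12 and 0.23, and *scl-12* and *scl-13* had at most 1 read in each library.

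**Figure D4:**
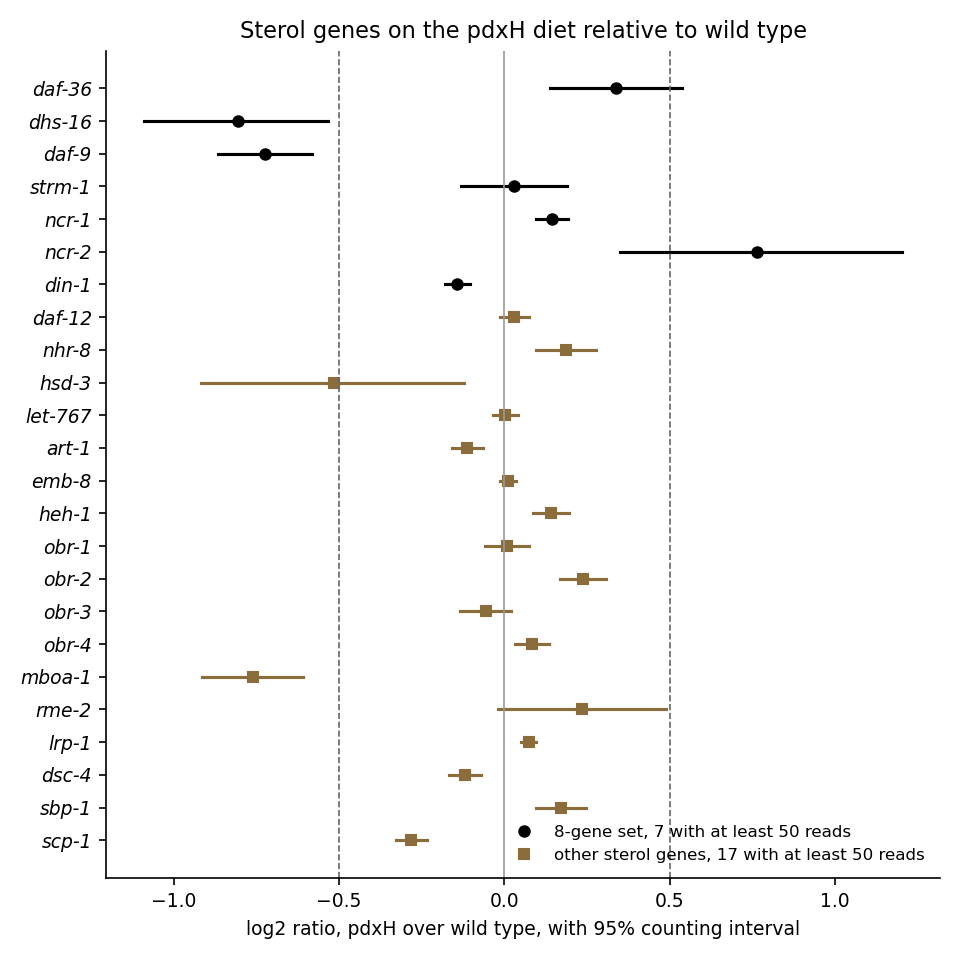
Log2 ratio of *pdxH* over wild type (points) with its 95% counting interval (lines) for the 7 genes (black circles) and the 17 other sterol genes (brown squares) with at least 50 reads; dashed lines mark 0.5 and -0.5. *dhs-16*, *daf-9*, *mboa-1* and *hsd-3* lie below -0.5 and *ncr-2* alone lies above 0.5.

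Markers of the cells that could hold these transcripts had log2 ratios of both signs. The 4 XXX cell genes *eak-3*, *eak-4*, *eak-6* and *sdf-9* had 214 reads in all with the *pdxH* mutant and 125 with wild-type *E. coli*, a log2 ratio of the sums of 0.58. *eak-4* and *eak-6* alone had at least 50 reads. The log2 ratio of *eak-6* was 0.76 (95% interval 0.26 to 1.30), and it was the 1 XXX marker whose interval lay above 0. That of *eak-4* was 0.36 (95% interval -0.12 to 0.86), and the intervals of *eak-3* and *sdf-9* also held 0. The 6 intestinal markers ran from -0.50 to 0.00, while *daf-36* was at 0.34. The 4 hypodermal markers ran from -1.19 for the cuticle collagen gene *dpy-7* to 0.17 for *elt-3*, and that of *lin-26* was -0.27. *daf-9* is also known to be expressed in the hypodermis.

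The 6 neuronal markers were all above 0, with a median of 0.24, and the 4 germline markers were all below 0, with a median of -0.58. The 4 body wall muscle markers ran from -0.20 to -0.14 and the 4 pharyngeal markers from -0.06 to 0.32. The ratios of *daf-9* and *dhs-16* lay within the range of the germline markers, -0.82 to -0.48. Of all genes tested, 9.46% were under -0.5, and these libraries do not show whether either gene is expressed in the germline. The wider range of the hypodermal markers, -1.19 to 0.17, also held the ratios of *daf-9* and *dhs-16*, but only through *dpy-7*. The markers *lin-26* (-0.27), *nhr-25* (-0.07) and *elt-3* (0.17) were all above *daf-9* and *dhs-16*. The part of cell make-up or of developmental progress in the differences of *daf-9*, *dhs-16*, *daf-36* and *ncr-2* was not tested.

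**Figure D5:**
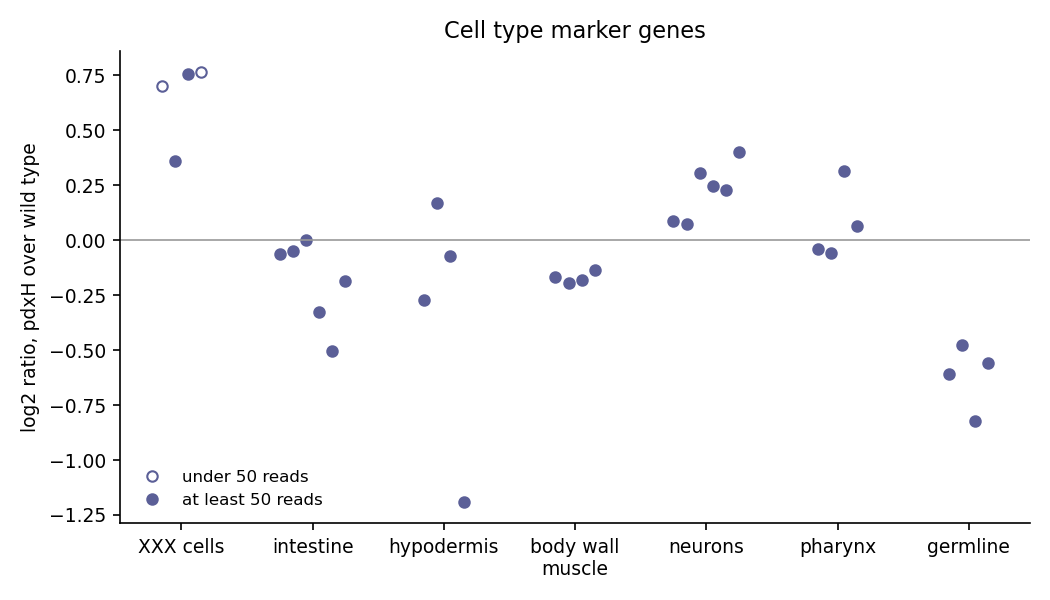
Log2 ratio of *pdxH* over wild type for each marker gene, grouped by the cell type it marks; filled points had at least 50 reads in both libraries together and open points fewer. The points of XXX and neuronal markers lie above 0, though the counting intervals of 3 of the 4 XXX markers hold 0, germline markers between -0.82 and -0.48, and *dpy-7* of the hypodermis lowest, at -1.19.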

How the data were processed

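Per the submitters' processing notes and the study's methods, reads were trimmed with Trimmomatic, mapped with STAR 2.5.3a to ce11, counted per gene with HTSeq and compared with GFOLD 1.1.4. The libraries were made with a kit not described as keeping strand. The deposited signal values are named RPKM, but the authors set all gene lengths to 20 bases, which leaves a scaling by library total alone. The authors' own log2 fold changes, GFOLD scores and error rates (a fraction, 1 for each of the 46904 genes) were not used.

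One read was worth 1.08 in the *pdxH* library and 1.23 in the wild-type library. Of values above 0, 97.6% and 97.8% came out within 0.02 of a whole read, and the reads added up to the header totals. Levels used exon lengths from Ensembl 115 (WBcel235, the same coordinates as ce11), and all 8 symbols matched.

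The log2 ratio used deposited values plus a pseudocount of 1. Its 95% interval is the Clopper-Pearson interval of a gene's *pdxH* share of reads, scaled by the totals, without pseudocount. Ratios of 2 genes within a library have the exact conditional interval of their odds ratio. All intervals cover counting error only. The threshold of 0.5 is the size the study used on its own scale. Python 3.11.15, SciPy 1.17.1 and edgeR 4.0.16 were used, and the procedures were tested on simulated reads. The 8 genes, the 26 other sterol genes and the markers were chosen with earlier results of these data known, and the read range of 200 to 2000 was chosen after the values were seen. All 8 genes are named, and of the other list those chosen by role and those past the threshold. No genes of like pattern are named, since 2 libraries give 1 difference per gene.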

Additional observations from a re-analysis of the deposited data

How the results depend on the processing

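No paired analysis was possible because there was only 1 library of each diet, and none could be left out. Against 1 gene of the 8 higher and 2 lower past 0.5, a threshold of 0.25 gave 2 higher, with *daf-36* added, and a threshold of 1 gave 0 higher and 0 lower. Among the 26 other sterol genes, with 0 higher and 2 lower, a threshold of 1 gave 0 lower, a pseudocount of 5 gave 1 lower, and no filter on low values gave 2 higher and 7 lower, as genes with few reads then entered. Pseudocounts of 0.1 and 5, centring on the median, totals without the 20 most abundant genes, and TMM scaling in edgeR left each of 120 recomputed ratios of 24 genes inside its counting interval. The scalings moved the median of all genes by -0.01, 0.01 and -0.01 on the log2 scale. The median of the 8 genes ran from 0.02 to 0.09, the highest without the filter, where *hsd-1* enters.

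An exact binomial test of the reads, added after the data were seen, compares the libraries and not the diets. With an adjusted p of up to 0.05 (Benjamini-Hochberg) and a ratio past 0.5, it called 660 genes higher and 1260 lower of 14279, and among the 8 again 1 higher and 2 lower. Depth limits *hsd-1*, *hsd-2* and the vitellogenin genes.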
